A study of Mus musculus with 17 samples.

Results

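The 66 genes described here encode mouse amino acid and neurotransmitter transporters, with their accessory chains. They were chosen by symbol, as the RefSeq protein-coding genes named Slc1a, Slc3a, Slc6a, Slc7a, Slc17a, Slc36a or Slc38a followed by a number, out of 21887 protein-coding genes on the chromosomes of the peak list. Slc1a2, Slc1a3, Slc6a3 and Slc17a6 match the same pattern and were set aside by the rule, so the main astrocytic glutamate transporters, the dopamine transporter and the vesicular glutamate transporter of subcortical neurons are not among the 66. The 7 families hold 20 Slc6 genes, 16 Slc7 genes, 11 Slc38 genes, 8 Slc17 genes, 5 Slc1 genes, 4 Slc36 genes and 2 Slc3 genes. Slc7a6os, a gene named for lying on the opposite strand beside Slc7a6, matches the pattern without being a transporter, and 65 genes remain without it.

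The data were 1 list of 183678 peaks of H3K27ac, an acetyl mark on the tail of histone H3, from bulk CUT&Tag of mouse hypothalamus. CUT&Tag tethers a transposase to an antibody so that DNA beside the mark is cut out and sequenced. The 3 bulk samples are labelled as biological replicates of hypothalamus, with no treatment or second condition named, and all of them share the same list. The series also holds 7 DNA and 7 RNA sub-libraries of Paired-Tag, which reads histone marks and RNA in the same nuclei. Those are not analysed here. The labels used here name no genotype, strain, sex or age. Because 1 pooled list stands for 3 samples, no value had a spread between replicates, the sequencing depth is unknown, and no test between groups was possible. Every comparison below is therefore a description of that list. In bulk tissue, strong marking in few cells and weak marking in many cannot be told apart.

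Transporters of these families move amino acids and transmitters across membranes by coupling them to gradients of sodium, protons or other amino acids. In the brain, Slc6 and Slc1 proteins clear GABA, glycine, monoamines and glutamate from the extracellular space, and Slc17 proteins load glutamate or ATP into vesicles. Slc38 proteins carry glutamine between astrocytes and neurons, where it is a precursor of glutamate and GABA. Slc7 light chains, several of which need an Slc3 heavy chain to reach the membrane, exchange large neutral, cationic or acidic amino acids. H3K27ac marks active promoters and enhancers, and a peak says that the mark was present, not how much transcript was made.

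A peak was counted for a gene when it overlapped the annotated span or the 10 kb on either side. Its height is the fold, the authors' enrichment of the peak over a background that they do not describe. A peak was called at an end when it lay within 1 kb of either end of the span, and at a start when it lay within 1 kb of a start listed in RefSeq's promoter table. Starts were listed for 47 of the 66 members, and the other 19 were judged by the span ends alone.

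The promoters below carry the main contrasts among the members and are taken from RefSeq (build GRCm38.p6), each running from 250 bases before a listed start to 50 after it, 5′ to 3′ on the gene's own strand. The first 6 are shown with their CpG dinucleotides in capitals. Slc38a2 (chr15:96699679-96699978, minus strand) and Slc6a11 (chr6:114130991-114131290, plus strand) had 41 and 32 CpGs and a peak at the start. Slc38a7 (chr8:95853442-95853741, minus strand) had 10 CpGs and a start peak of higher fold than either. Slc17a7 (chr7:45163671-45163970, plus strand) had 13 CpGs without a peak within 1 kb. Slc17a3 (chr13:23839184-23839483, plus strand) had 2 CpGs and no peak at the start. Slc6a19 (chr13:73692587-73692886, minus strand) had 4 CpGs and a peak.
Slc38a2: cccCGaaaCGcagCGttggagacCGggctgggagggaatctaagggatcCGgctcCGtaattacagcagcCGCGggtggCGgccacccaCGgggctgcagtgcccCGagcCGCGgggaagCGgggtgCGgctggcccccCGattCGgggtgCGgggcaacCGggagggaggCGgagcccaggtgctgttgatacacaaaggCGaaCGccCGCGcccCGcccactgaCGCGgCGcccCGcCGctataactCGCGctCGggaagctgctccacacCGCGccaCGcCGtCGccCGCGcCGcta
Slc6a11: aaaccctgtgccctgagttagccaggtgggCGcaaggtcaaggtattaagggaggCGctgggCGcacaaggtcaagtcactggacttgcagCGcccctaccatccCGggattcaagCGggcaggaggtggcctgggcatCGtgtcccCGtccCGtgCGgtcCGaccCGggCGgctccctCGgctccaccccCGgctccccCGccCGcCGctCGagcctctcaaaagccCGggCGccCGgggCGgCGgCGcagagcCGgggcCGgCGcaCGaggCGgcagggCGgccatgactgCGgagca
Slc38a7: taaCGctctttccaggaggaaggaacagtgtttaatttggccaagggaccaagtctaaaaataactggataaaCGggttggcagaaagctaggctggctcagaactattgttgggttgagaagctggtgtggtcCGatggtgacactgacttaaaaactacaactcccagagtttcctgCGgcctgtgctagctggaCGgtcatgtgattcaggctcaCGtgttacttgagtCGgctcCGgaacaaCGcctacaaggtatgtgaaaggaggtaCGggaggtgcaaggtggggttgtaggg
Slc17a7: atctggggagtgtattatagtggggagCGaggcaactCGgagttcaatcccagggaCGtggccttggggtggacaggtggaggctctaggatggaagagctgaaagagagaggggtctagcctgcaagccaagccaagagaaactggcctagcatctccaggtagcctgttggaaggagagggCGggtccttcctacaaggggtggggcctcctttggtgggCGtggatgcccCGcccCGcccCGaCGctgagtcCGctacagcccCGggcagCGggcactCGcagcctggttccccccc
Slc17a3: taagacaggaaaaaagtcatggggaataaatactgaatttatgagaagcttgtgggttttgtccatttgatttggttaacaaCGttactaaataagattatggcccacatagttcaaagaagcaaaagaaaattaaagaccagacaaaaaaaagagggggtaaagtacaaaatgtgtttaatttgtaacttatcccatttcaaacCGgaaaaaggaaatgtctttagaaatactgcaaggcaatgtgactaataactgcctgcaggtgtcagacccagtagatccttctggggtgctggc
Slc6a19: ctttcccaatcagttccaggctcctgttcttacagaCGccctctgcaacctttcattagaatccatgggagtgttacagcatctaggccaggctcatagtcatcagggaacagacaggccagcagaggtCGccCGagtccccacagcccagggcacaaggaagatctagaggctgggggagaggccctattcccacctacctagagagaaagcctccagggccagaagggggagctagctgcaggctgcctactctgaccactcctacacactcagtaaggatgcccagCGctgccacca

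The next promoters, Slc7a11 (chr3:50443564-50443863, minus strand) and Slc1a4 (chr11:20332664-20332963, minus strand), are shown because they hold TGATGNAA, the core of the amino acid response element that ATF4 with C/EBP proteins is known to bind. The matches are in capitals, on either strand.
Slc7a11: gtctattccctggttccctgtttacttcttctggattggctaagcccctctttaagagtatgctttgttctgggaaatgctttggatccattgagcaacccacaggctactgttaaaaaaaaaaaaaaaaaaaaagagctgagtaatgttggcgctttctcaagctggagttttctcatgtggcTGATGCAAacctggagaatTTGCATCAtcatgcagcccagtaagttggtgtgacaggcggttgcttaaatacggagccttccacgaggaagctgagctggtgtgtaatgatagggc
Slc1a4: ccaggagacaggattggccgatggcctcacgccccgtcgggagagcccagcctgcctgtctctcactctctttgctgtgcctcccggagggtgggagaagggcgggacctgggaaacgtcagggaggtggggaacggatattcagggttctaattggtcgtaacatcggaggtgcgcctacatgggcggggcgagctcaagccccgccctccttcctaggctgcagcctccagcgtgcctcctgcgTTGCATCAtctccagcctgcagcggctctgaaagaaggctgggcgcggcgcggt

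Most transporter genes lay in marked chromatin. A peak lay in the window of 59 of the 66 members (89.4%), beside 79.2% of all protein-coding genes. At the ends of the span the shares were close, with 45 members (68.2%) beside 69.2% of coding genes. At a listed start they were 33 of 47 members (70.2%) and 68.3% of coding genes, an order that turned with only peaks of high −log10 q (55.3% and 64.5%) or of high fold (55.3% and 59.8%). Members had a median of 6 peaks (range 0 to 35), and coding genes a median of 4 (range 0 to 226). At least 10 peaks lay in the windows of 21 members (31.8%) and of 20.5% of coding genes. The members' windows were also longer, with a median of 52311 bp against 37168 bp for coding genes. Set against coding genes of the same decile of window length, 33 of the 66 members had more peaks than the decile's median and 34 had more of the window covered. Peaks covered a median of 8.93% of a member's window and 7.50% of a coding gene's.

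The highest peaks of members were lower in the median than those of coding genes. The median of the highest fold per gene was 7.23 over the 59 members with a peak (range 2.31 to 16.4), and 9.47 over coding genes. The peaks at listed starts had a median highest fold of 7.86 for members and 9.05 for coding genes. The 510 distinct peaks in members' windows had a median fold of 3.08, and all peaks of the list had 3.18. Their median width was 623.5 bp, against 557 bp for all peaks. Counting a peak once for each member whose window it reached gave 524 pairs of member and peak. Of these, 43 (8.21%) lay at a listed start, 37 (7.06%) at another end of the span, 328 (62.6%) inside the gene and 116 (22.1%) in the flanks. The start peaks were higher, at a median fold of 6.96, against 3.08 at the other ends, 2.97 inside genes and 3.19 in the flanks. They were also wider, at 1097 bp against 561.5 bp inside genes.

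**Figure D1:**
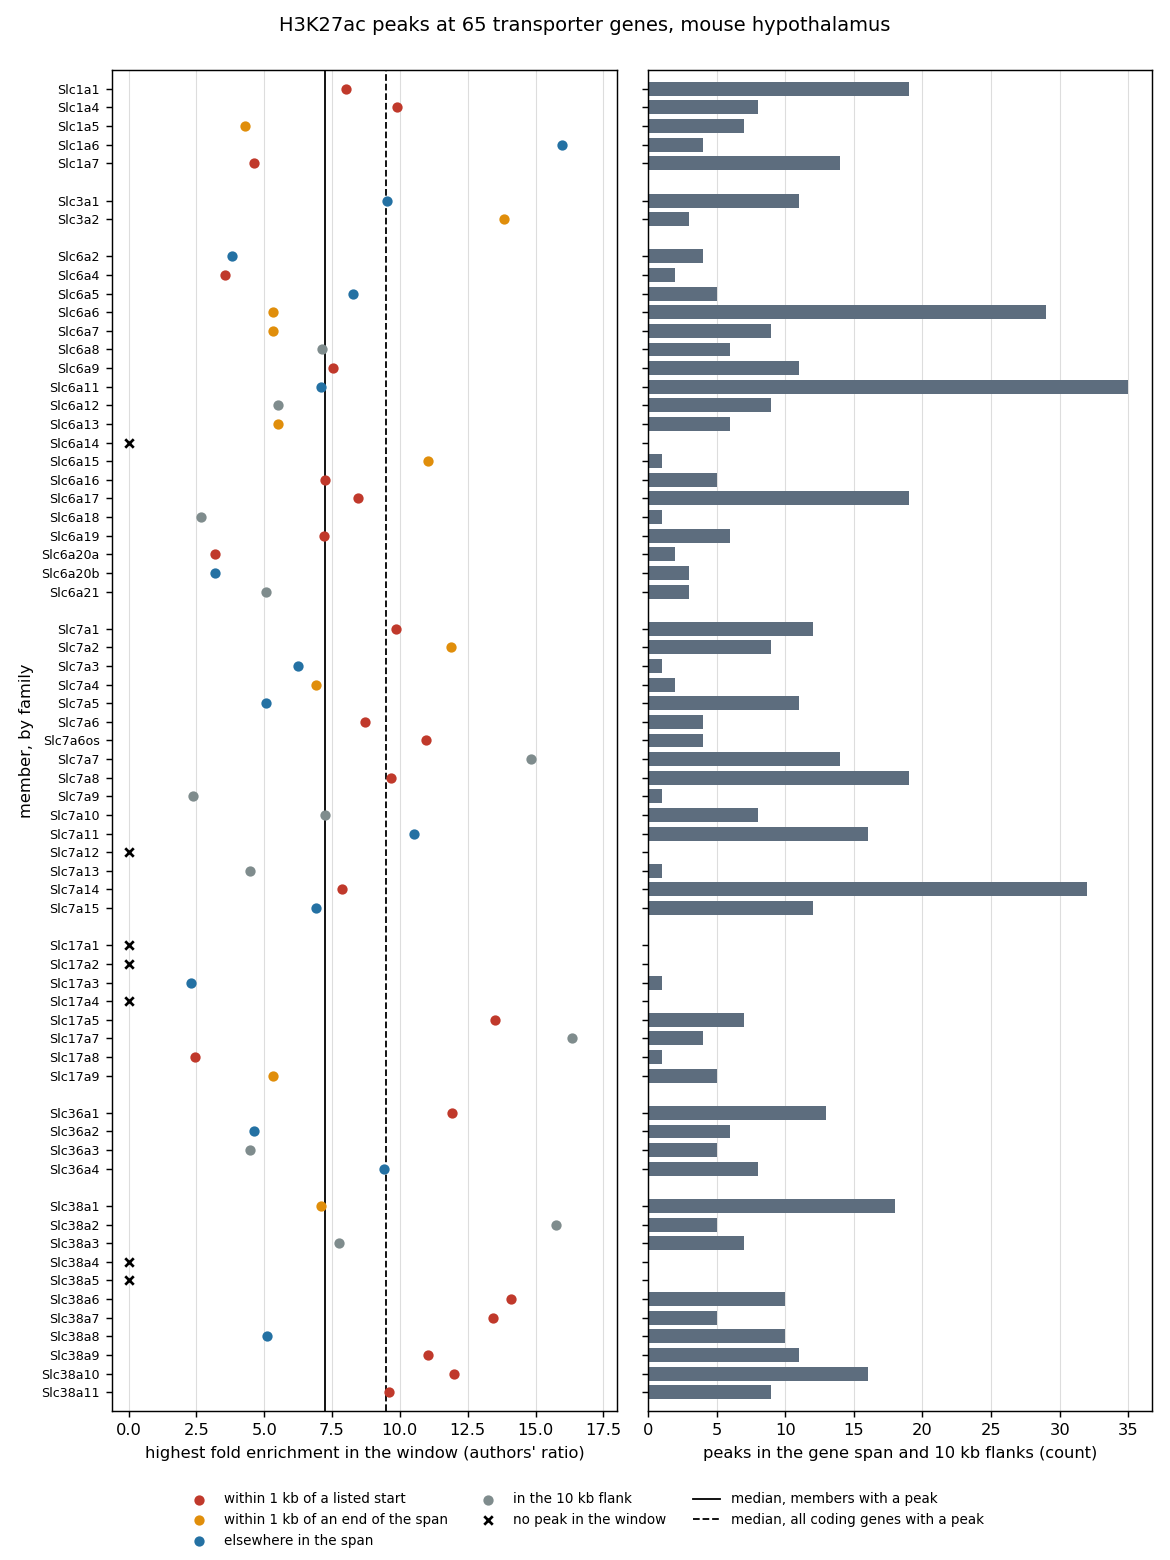
Highest fold (left) and number of peaks (right) for 65 members, grouped by family, with the colour of a point giving the place of the highest peak, crosses marking genes with no peak and lines the medians, 7.23 for members and 9.47 for coding genes. There are no error bars because the list is pooled. Slc6a11, Slc7a14 and Slc6a6 have the most peaks, at 35, 32 and 29, while the highest folds, up to 16.4, belong to Slc17a7, Slc1a6 and Slc38a2, the last by a peak whose summit lies just outside the window.

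**Figure D2:**
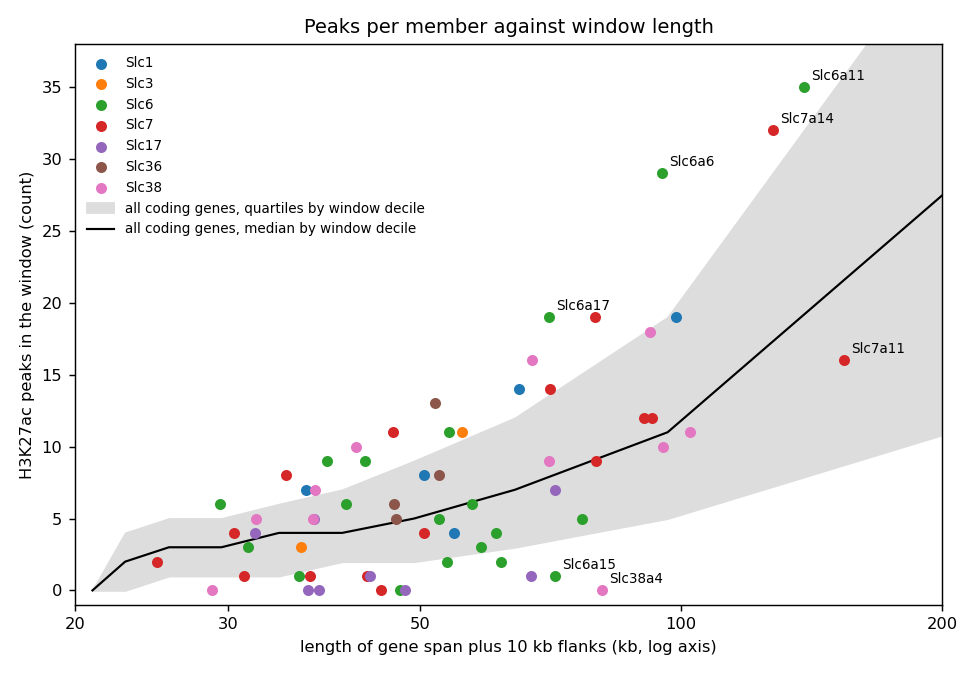
Number of peaks in the window against window length (log axis) for 65 members, over the medians and quartiles of all protein-coding genes by decile of window length. Members fall on both sides of the medians, and Slc6a11, Slc7a14 and Slc6a6 lie above the shaded quartiles while Slc6a15 and Slc38a4 lie below them.

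Slc6a11 had the most peaks of all members. It encodes GAT3, the mainly astrocytic GABA transporter, and its span on chromosome 6 (114131241 to 114249886) held most of its 35 peaks. That was more than 95.9% of coding genes had, but its window is long. The median over coding genes of its decile of window length was 28. Of the 35 peaks, 28 lay inside the gene, 4 in the flanks, 1 at the start and 2 at the other end. The start peak had a fold of 5.51. The highest, at 7.07, was inside the gene, 57745 bp from the start. The same gene had the widest peak of any member, 3228 bp.

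Slc6a12 and Slc6a13 are neighbours on chromosome 6 with a gap of 4852 bp, and 4 peaks lay in both of their windows. Slc6a12 encodes a betaine and GABA transporter and had 9 peaks, of which 4 were nearest to it. Slc6a13 encodes GAT2, which is known from the meninges and other brain barriers, and had 6 peaks. Their shared highest peak had a fold of 5.52 and lay at the 3′ end of Slc6a13 (121337834 to 121338604), 4242 bp upstream of Slc6a12. None of the listed starts of Slc6a13 had a peak, and the peak at the start of Slc6a12 had a fold of 2.42. Among markers of fibroblasts and meninges, Col1a2 had a highest fold of 7.26 and Dcn and Lum had no peak. Their part in these values was not tested.

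**Figure D3:**
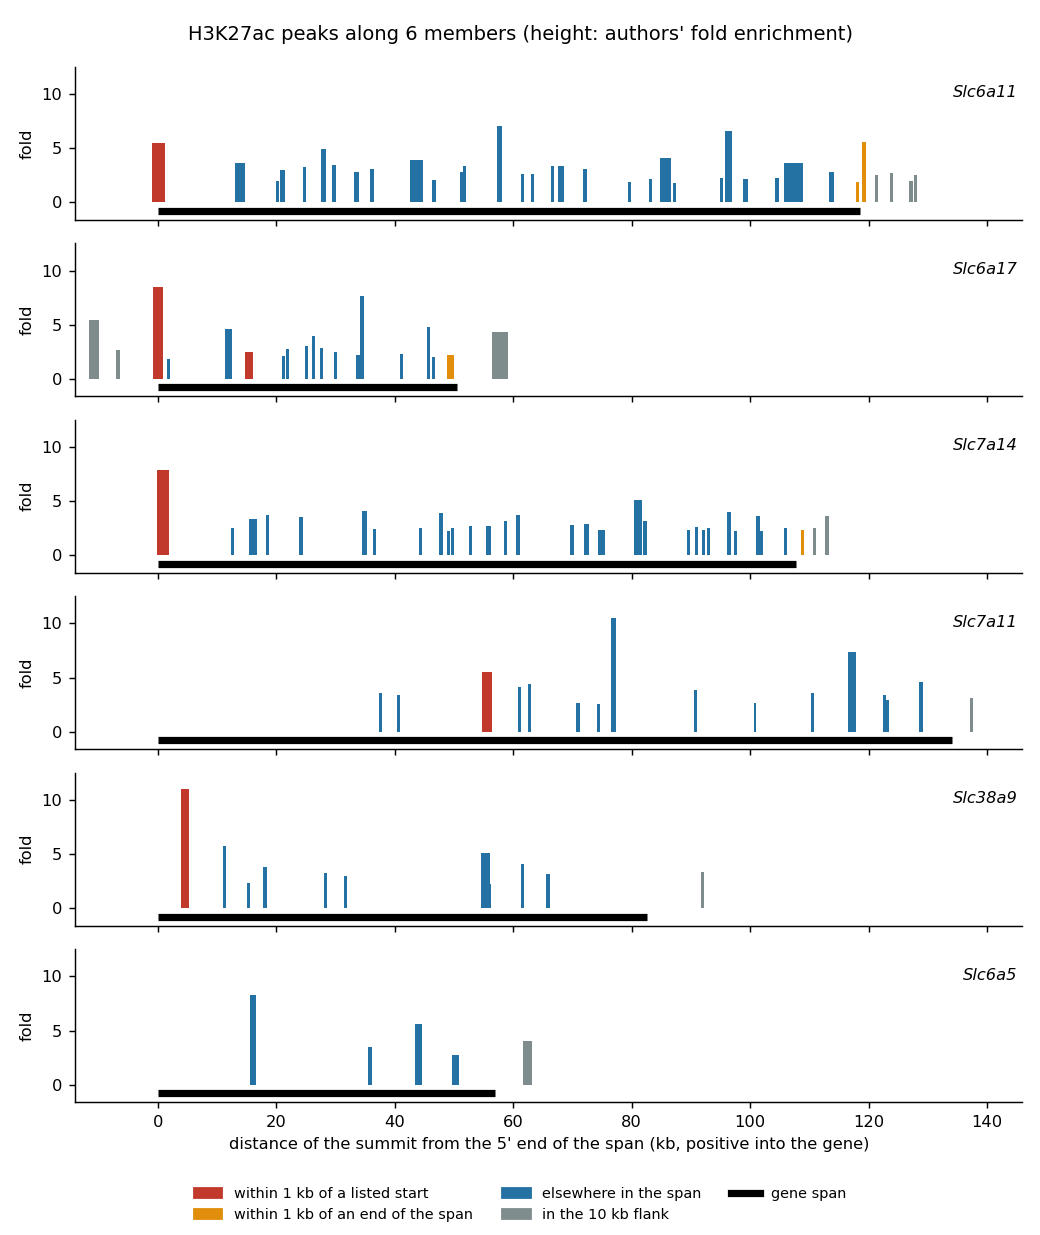
Peaks along Slc6a11, Slc6a17, Slc7a14, Slc7a11, Slc38a9 and Slc6a5 by distance from the 5′ end of the span (kb), with the authors' fold as the height of each bar, the place as its colour, and bars centred on the summits with the narrowest widened to be visible. Slc6a11 and Slc7a14 carry 28 peaks each inside the gene, the highest bar of Slc7a11 stands downstream of its listed start, and Slc6a5 has no bar at a start.

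The glycine transporters differed in where the mark lay. Slc6a9 encodes GlyT1, which is mainly glial, and had 11 peaks, 3 of them at its listed starts, with a highest fold of 7.54. Slc6a5 encodes GlyT2, the neuronal transporter of glycinergic terminals, and had 5 peaks, none at a start or an end. Its highest peak had a fold of 8.26 and lay inside the gene, 11386 bp from the nearest listed start.

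The monoamine transporters were sparsely marked. Slc6a4, the serotonin transporter, had 2 peaks, with folds of 3.54 and 3.25. The higher overlapped the 1 kb before the start, with its summit 1219 bp upstream. Slc6a2, the noradrenaline transporter, had 4 peaks of at most 3.83 fold and none at an end. The cell bodies that express these transporters are known to lie mainly in the brainstem, while the hypothalamus receives their axons. Whether this bears on the values here was not tested.

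The taurine transporter gene had the highest coverage of all 66 members. Slc6a6, on chromosome 6 (91684048 to 91759063), had 29 peaks covering 25.9% of its window, more than in 99.1% of coding genes. Its highest peak was of only moderate fold, 5.32, at the lower-coordinate end. Slc6a8, the creatine transporter on the X chromosome, had 6 peaks. Its highest, at 7.13, lay inside the neighbouring gene Bcap31. The peaks at its own end had folds of 4.55 and 3.32.

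Of the other Slc6 genes, 8 were grouped as carriers of neutral amino acids, and their windows ranged widely. Of the 8 in this group, 7 (87.5%) had a peak, beside 79.2% of coding genes. The group's median was 2.5 peaks, beside 4 for coding genes. Slc6a17, a transporter of synaptic vesicles, had 19 peaks covering 21.0% of the window. Its start peak (chromosome 3, 107516774 to 107518454) had a fold of 8.47, and a flank peak of 5.42 had its summit 10795 bp upstream. Slc6a7, the brain proline transporter, had 9 peaks and a coverage of 21.0%, with a highest fold of 5.31 at an end. Slc6a15, a neuronal transporter of branched-chain amino acids, stood at the other extreme. Its only peak was high and wide, with a fold of 11.0 and 2284 bp, at the lower-coordinate end of its span on chromosome 10. That peak also reached an end of the noncoding gene 6430590A10Rik.

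Slc6a19, best known from intestine and kidney, had 6 peaks, and the peak at a listed start had a fold of 7.21 although its promoter has 4 CpGs. Its neighbour Slc6a18 had 1 peak, with a fold of 2.67, which lay nearer to another coding gene. Slc6a20a and Slc6a20b, neighbouring and similar carriers of proline, had 2 and 3 peaks with a highest fold of 3.18 each, and shared 1 of them. Reads of such similar copies can be split or lost in mapping, so their values are uncertain. Slc6a14, a carrier of neutral and cationic amino acids on the X chromosome, had no peak within 10 kb, and its nearest peak was 352425 bp away. Slc6a16 and Slc6a21 were put in no role group. Slc6a16 had 5 peaks with a fold of 7.24 at the start. Its neighbour Slc6a21 had 3 peaks, all in its flanks and all shared with Slc6a16.

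All 5 Slc1 genes had a peak at an end, beside 69.2% of coding genes, and all 4 with a listed start had one there, beside 68.3%. Slc1a1 encodes the neuronal glutamate and cysteine transporter EAAC1, and had 19 peaks with a fold of 8.02 at the start. Slc1a4 and Slc1a5 encode exchangers of serine, glutamine and other neutral amino acids. Slc1a4 had 8 peaks, with 9.91 at the start. Slc1a5 had 7 peaks and a highest fold of 4.28. Slc1a6, known from cerebellar Purkinje cells, had the second highest fold of all members, 16.0, but this peak lay inside the gene within 1 kb of an end of Ccdc105. The peak at the start of Slc1a6 had 6.96. Slc1a7, known from retina, had 14 peaks of at most 4.62 fold.

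The Slc17 family was the least marked within 10 kb, with peaks in the windows of 5 of 8 genes (62.5%), beside 79.2% of coding genes. Its median was 1 peak, beside 4 for coding genes. With a flank of 50 kb all 8 had a peak, beside 85.1% of coding genes, and the median was 6, beside 12 for coding genes. The 4 phosphate and organic anion carriers, known from kidney and liver, lie together on chromosome 13. Slc17a1, Slc17a2 and Slc17a4 had no peak within 10 kb, and their nearest peaks were 23265, 18623 and 25241 bp away. Slc17a3 had a single peak of 2.31 fold inside the gene, the lowest among the members' highest folds. The 4 vesicular and lysosomal carriers all had a peak at an end, beside 69.2% of coding genes, and had from 1 to 7 peaks each. Slc17a5 encodes sialin, a lysosomal carrier, and its start peak had a fold of 13.5. Slc17a9 loads ATP into vesicles, and had 5 peaks with a highest fold of 5.32 at an end. Slc17a8, the vesicular glutamate transporter VGLUT3, had a single peak of 2.46 fold at the start.

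Slc17a7, the vesicular glutamate transporter VGLUT1 of cortical neurons, had its highest peak outside the gene. That peak, at 16.4, was also the highest of all members, and its summit lay 9429 bp upstream of the start at an end of Aldh16a1 (chromosome 7, 45153900 to 45155165). The next had a fold of 9.07, with its summit 1687 bp upstream of the start and no other gene end within 1 kb. The 2 remaining peaks had folds of 3.03, inside the gene, and 2.67, at the 3′ end. No peak lay within 1 kb of the start.

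Both Slc3 heavy chains had a peak at an end, beside 69.2% of coding genes, and at a listed start, beside 68.3%. With only peaks of high −log10 q or of high fold, 1 of the 2 kept a peak at these places. Slc3a2 encodes CD98, the heavy chain of most light chains of the brain, and had 3 peaks. The highest, 13.8, lay at the 5′ end of the span beside the noncoding gene Snhg1, and a listed start further inside had 9.38. Slc3a1 is best known from kidney, as the partner of Slc7a9. Of its 11 peaks 5 were nearest to it. The highest, 9.53, lay inside the gene, and the start peak had 3.13. Slc7a9 itself had 1 peak, of 2.38 fold, which lay in the flank at an end of Cep89.

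Of the 10 light chains, 9 had a peak in the window, beside 79.2% of coding genes, and 6 of the 7 with a listed start had one there, beside 68.3%. At an end of the span 4 of the 10 (40%) had one, beside 69.2% of coding genes. Slc7a8, encoding LAT2 for neutral amino acids, had 19 peaks with 9.67 at the start. Slc7a5, encoding LAT1, which carries leucine and thyroid hormone across the blood-brain barrier, had 11 peaks covering 19.7% of the window, but its highest fold was 5.08. Slc7a10, an exchanger of serine and glycine, had 8 peaks, with 7.23 in the flank and 5.39 at the start. Slc7a6 had 8.72 at the start, with 4 peaks. Slc7a7 had 14 peaks. Its highest, 14.9, lay in the flank within 1 kb of an end of Oxa1l, and its start peaks reached 3.28. Slc7a15 had 12 peaks and a highest fold of 6.91, with 2.10 at the start. Slc7a13 had 1 peak, of 4.48 fold, in the flank. Slc7a12 had none, and its nearest peak was 27724 bp away. Slc7a6os shared 2 peaks with Slc7a6 and had 10.95 at its start in a peak that also reached Prmt7, and none of its 4 peaks was nearest to it.

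Slc7a11 encodes xCT, the exchanger of cystine for glutamate that supplies cysteine for glutathione. It had 16 peaks over a span of 134152 bp on chromosome 3, 14 of them inside the gene. The peak at the listed start (50442627 to 50444301) had a fold of 5.55 and covers the promoter shown above with its TGATGNAA matches. The listed start lies well inside the span, and the highest peak, 10.5, was 21463 bp downstream of it (50421398 to 50422296).

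All 5 cationic carriers had a peak, beside 79.2% of coding genes, and 4 (80%) had one at an end, beside 69.2%. Slc7a14, a carrier of intracellular vesicles, had 32 peaks, more than in 95.3% of coding genes, and 28 of them were inside the gene. Its start peak had 7.86. Slc7a1, encoding the arginine and lysine carrier CAT1, had 12 peaks and 9.86 at the start. Slc7a2, encoding CAT2, had 9 peaks and a highest fold of 11.9 at the lower-coordinate end. Slc7a3, encoding CAT3, had 1 peak of 6.24 fold, 2515 bp wide, inside the gene. Slc7a4 had 2 peaks, the higher of 6.90 fold at an end.

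The 4 Slc36 genes, proton-coupled carriers of small amino acids, all had a peak at an end, beside 69.2% of coding genes. Slc36a1, encoding the lysosomal carrier PAT1, led with 13 peaks and a start peak of 11.9. Slc36a4 had 8 peaks, with 9.41 inside the gene and 8.31 at the start. Slc36a2 and Slc36a3 lie beside Slc36a1 on chromosome 11 and were lower, with 6 and 5 peaks and highest folds of 4.62 and 4.48. Slc36a2 shared 2 peaks with Slc36a3 and 1 with Slc36a1.

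The 11 Slc38 genes had a median of 9 peaks, beside 8 in Slc1 and 4 for all coding genes. Their windows were longer, with a median of 67401 bp against 37168 bp for coding genes. Over the 9 with a peak, the median highest fold was 11.05, against 9.47 for all coding genes. The number of peaks and the fold both depended on the window. With no flank the median was 5 peaks in Slc38, 8 in Slc1 and 2 for coding genes. With a flank of 50 kb it was 17, against 22 in Slc1 and 12 for coding genes. With 50 kb the median highest fold of Slc38 was 11.47, against 11.50 for coding genes. With no flank it was 9.61, against 8.81. Counting only summits inside the 10 kb window it was 9.61, against 9.42. Peaks were at the start in 6 of the 9 Slc38 genes with a listed start (66.7%), near the 68.3% of coding genes. Among these, Slc38a6 had 14.1 in a peak that also reached Trmt5. Slc38a7, a lysosomal glutamine carrier, had 13.4 (chromosome 8, in a gene of 17658 bp). Slc38a10 had 11.98 with 16 peaks in all. Slc38a9, the lysosomal arginine sensor of the mTOR pathway, had 11.05. Slc38a11 had 9.61. Slc38a8 had 10 peaks of at most 5.10 fold and none at a start.

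Among the Slc38 genes that carry glutamine over the plasma membrane, the pattern was uneven. Slc38a1, of neurons, had 18 peaks with a highest fold of 7.08 at an end. Slc38a3, encoding the mainly astroglial carrier SNAT3, had 7 peaks covering 23.8% of its window, more than in 97.9% of coding genes. Its highest fold was 7.77, in the flank, and 4.09 at an end. Slc38a2, encoding the starvation-induced carrier SNAT2, had 5 peaks. A pair of peaks at its start had folds of 7.81 and 5.93, with summits 744 bp after and 148 bp before it. Another, in the flank, was higher at 15.8 (chromosome 15, 96709140 to 96710312). Its summit lay 10074 bp upstream, just outside the window that the peak overlaps, with no other annotated gene end within 1 kb. Counting only summits inside the window leaves 7.81 as the highest fold of Slc38a2. Slc38a4, an imprinted gene known from liver and placenta, and Slc38a5, of the same system as Slc38a3, had no peak within 10 kb. Their nearest peaks were 40617 and 18509 bp away and had folds of 11.9 and 11.5.

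The highest peak of a member was not always its own. It lay at a listed start for 22 members, at another end for 11, inside the gene for 14 and in the flank for 12. For 8 members its summit was nearest to another coding gene, and for 7 it reached an end of another coding gene. The same counts are not available over all coding genes, so whether they are particular to members is not known. Of the 5 highest members, Slc17a7, Slc1a6, Slc7a7 and Slc38a6 had theirs at the end of another gene, and Slc38a2 did not. Of the 524 pairs, 463 were nearest to the member, beside 145592 of 170172 pairs over all coding genes. The Spearman correlation between window length and number of peaks was 0.565 over the 66 members and 0.618 over coding genes, whose points share 1 library pool.

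**Figure D4:**
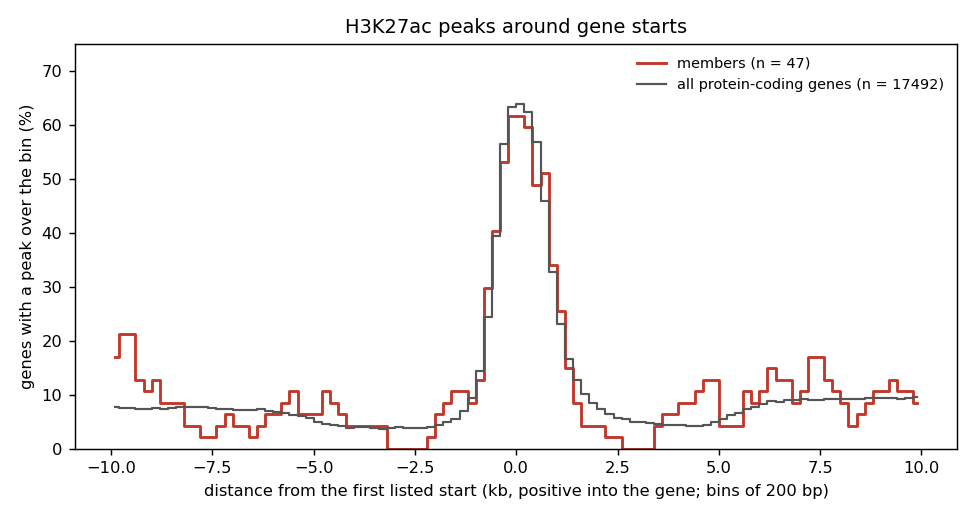
Share of genes with a peak by distance of the base from a listed start, in steps of 200 bp within 10 kb, for 47 members and for 17492 coding genes. Where a gene has several starts the first listed was used. Both curves are highest at the start, where 29 of 47 members (61.7%) and 63.9% of coding genes are covered.

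Taking for each gene the listed start with the most CpGs, all 15 members with 20 or more CpGs had a peak within 1 kb, beside 97.3% of coding genes. With 10 to 19 CpGs, 11 of 15 members (73.3%) and 91.2% of coding genes had one. With 5 to 9 CpGs it was 5 of 10 members (50%) and 56.2% of coding genes, and with 0 to 4 it was 2 of 7 members (28.6%) and 15.0% of coding genes. Counted over all 69 listed promoters of members, a peak stood at 6 of 13 (46.2%) with 0 to 4 CpGs, 10 of 23 (43.5%) with 5 to 9, 13 of 17 (76.5%) with 10 to 19 and 16 of 16 with 20 or more, so the lowest classes did not rise. Members with a peak had a median of 18 CpGs, and those without 5.5. The members with at least 10 CpGs and no peak were Slc17a7, Slc38a5, Slc6a13 and Slc6a5. Over the 30 members with at least 10 CpGs, 26 (86.7%) had a peak, beside 95.2% of coding genes.

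**Figure D5:**
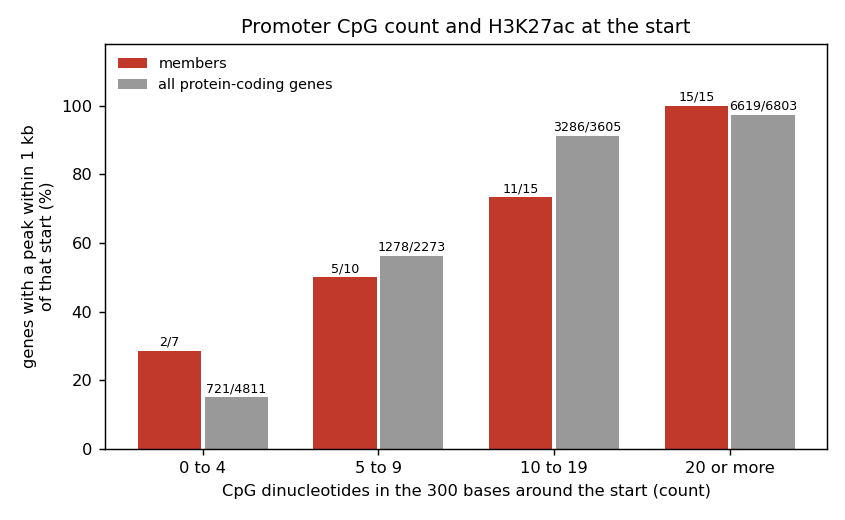
Share of genes with a peak within 1 kb of the start, by number of CpGs in the promoter of 300 bases, for 47 members and for 17492 coding genes. The shares run from 28.6% to 100% in members and from 15.0% to 97.3% in coding genes.

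Short motifs were searched on both strands of all 69 listed promoters of the 47 members and all 21263 of the 17492 coding genes. Promoters of the same gene can overlap, and members had more of them per gene. TGATGNAA was found in 6 member promoters (8.70%) and in 3.60% of coding promoters. They belong to 5 members, Slc7a11, Slc1a4, Slc7a7, Slc6a21 and Slc17a1, of which the first 3 had a peak at a start. CACGTG, the E-box, was found in 8 member promoters (11.6%) and in 7.84% of coding promoters. TGACNNNGC, the core of the antioxidant response element of NRF2, was found in 11 (15.9%) and in 12.98%, and not in Slc7a11 within this window. TGACG, a cyclic AMP response site that can overlap TGACNNNGC, was found in 18 (26.1%) and in 23.6%. GGGCGG, the GC box, was found in 32 (46.4%) and in 46.2%. CCAAT was found in 16 member promoters (23.2%) and in 38.2% of coding promoters, and TATAAA in 4 (5.80%) and in 12.6%. TTGGCA, a site of NFI proteins, was found in 7 (10.1%) and in 13.1%. These are matches of letters, counted with no test.

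Of the genes that work beside the transporters, all 12 of transmitter synthesis, breakdown and vesicle loading had a peak in the window, beside 79.2% of coding genes, and 11 had one at an end, beside 69.2%. Glul, glutamine synthetase of astrocytes, had 8.38 at the start. Gad1 and Gad2, which make GABA, had highest folds of 6.93 and 5.38 in the window, but 4.64 and 5.16 at a start. Slc32a1, which loads GABA into vesicles, had 11.3 in the window, but only 4.49 at a start and 3.37 at an end. Slc18a3, the vesicular acetylcholine transporter, had 1 peak and none at an end. All 9 genes of amino acid sensing had a peak at the start, beside 68.3% of coding genes, with folds from 4.57 at Castor1, the arginine sensor, to 17.2 at Eif2ak4, the sensor kinase of uncharged tRNA. Atf4, which it acts through, had 7.64 at the start. Rptor, a subunit of the mTOR complex, had 82 peaks, but its span is long (chromosome 11, 119602905 to 119899591). The median span of coding genes was 17169 bp.

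Among marker genes of the labelled tissue, all 6 hypothalamic markers (Nkx2-1, Rax, Otp, Sim1, Pomc and Agrp) had a peak at an end, beside 69.2% of all coding genes. So did the 3 markers each of neurons, oligodendrocytes, endothelium and choroid plexus. Of the astrocyte markers 2 of 3 had one, as did 2 of 3 microglial markers, close to the share of all coding genes. Of the pituitary markers Tshb had one, at 10.4 fold, while Gh and Prl had no peak.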

How the data were processed

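H3K27ac was profiled by CUT&Tag in bulk mouse hypothalamus, and the authors deposited 1 narrowPeak list that all 3 bulk samples name. Per the submitters' processing notes the build was mm10, and the tools named include BWA 0.7.17 and MACS2, with no parameters. Per the file's layout, the deposited columns are a score, a fold (ratio of the peak over background) and a −log10 q value for each peak, and the score was not used. They are the authors' values per peak, and rank or describe peaks within this list. No read counts or library sizes came with them, so depth and precision are unknown.

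Peaks were joined to RefSeq gene spans of GRCm38.p6 with python 3.11.15, pandas 2.3.3 and numpy 2.4.6, with at least 1 bp of overlap and a flank of 10 kb. The promoter table lists starts for 17492 coding genes and 47 members, so span ends were used for all genes and listed starts as an added measure. The counting was tested on simulated peaks. Equal highest folds were settled in favour of the peak at the start. Members may be named, and the 3 with the highest fold or most peaks in a family, and those with no peak, get full values. The members and gene lists were chosen with earlier results of these data known, and no p-value was computed. The Paired-Tag libraries were not used. A total of 9 alternatives were tried. Single values of 1 member and 1 pathway gene are not reported here, though both enter the counts.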

Additional observations from a re-analysis of the deposited data

How the results depend on the processing

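Counts and medians within 1.5 times the reported value are called the same here. With a flank of 50 kb the members' windows held 1097 pairs of member and peak, with a median of 16 peaks per member, against 524 and 6 with 10 kb. With only peaks whose −log10 q was above the list's median, there were 265 pairs, a median of 3 peaks and a median coverage of 5.38%. With only peaks in the upper quartile of fold, there were 128 pairs, a median of 2 and a coverage of 3.40%. The other 39 values for all members together stayed the same, over these settings, a flank of 0 or 2.5 kb, summits in place of overlap, peaks given to the nearest gene, and 500 bp or 2.5 kb at the ends. Within families 245 values stayed the same and 84 moved, 65 of them lower. The share of members with a peak stayed above that of coding genes, and their median highest fold below it, under each of the settings of flank, overlap, assignment and peak strength. At the ends of the span, keeping only peaks of high −log10 q left 36 members (54.5%) beside 64.3% of coding genes, and only peaks of high fold 35 (53.0%) beside 58.6%. At listed starts the same filters each left 26 of 47 members (55.3%), beside 64.5% and 59.8% of coding genes. At the ends of the span the order turned with peaks given to the nearest gene, at 44 members (66.7%) beside 64.1%. No paired analysis was possible because the 3 bulk samples form 1 group and share 1 list. The same pooling leaves no replicate to leave out, and unknown depth limits what a missing peak means.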
